A study of Mus musculus with 25 samples.

Results

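The genes described here are *Ctnnb1*, which encodes β-catenin, 8 genes of its degradation machinery (*Apc*, *Axin1*, *Amer1*, *Csnk1a1*, *Gsk3a*, *Gsk3b*, *Btrc* and *Fbxw11*) and the adhesion partner α-catenin (*Ctnna1*). These 10 of the 48440 genes of the table were taken by gene identifier, and all 10 were found and passed the filter on low counts in every comparison. The question was whether the messages for the degradation machinery changed when β-catenin was stabilized, either by CHIR99021 or by substitutions in β-catenin itself.

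β-Catenin, the product of *Ctnnb1*, links cadherins to the cytoskeleton and carries the Wnt signal into the nucleus. Without a Wnt signal, the destruction complex holds it on the scaffolds APC and AXIN1, CK1α places the first phosphate and the GSK3 kinases place the next ones. The F-box proteins β-TrCP1 and β-TrCP2 recognize the marked protein and pass it to the proteasome. In embryonic stem (ES) cells this pathway bears on self-renewal, and its activation is commonly mimicked with CHIR99021, a small molecule that inhibits both GSK3 kinases.

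RNA was measured in 25 libraries of E14 mouse ES cells, kept without feeders on gelatin in medium with serum and leukemia inhibitory factor. Unedited cells with the WT genotype label were treated for 48 h with CHIR99021 at 0, 2.5, 5, 7.5 or 10 µM, with 2 libraries per dose. The other 15 libraries each came from 1 clonal line with no CHIR99021, in which 1 *Ctnnb1* allele carried S37A, S37C, S37F (clones H2 and G1), S37Y, T41A (clones C1 and E6), T41I (clones B9 and A6), T41N, T41S, S45C, S45F (clones C1 and D9) or S45P. The labels list the same 48 h duration for the clones. To make these lines, a puroΔTK selection cassette placed in the locus was exchanged for a repair template, so editing, cloning and passage cannot be told apart from the substitution when clones are set against unedited cells. Nothing stated that the 2 libraries of a dose came from separate cultures, so p-values measure only the spread between these libraries, which may be technical.

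Clones were compared in the order of a score that the study measured for each substitution in a separate fluorescent reporter assay. The high class held the 9 clones with S37A, S37C, S37F, S37Y, T41A and T41I, the medium class the 3 clones with S45F and S45P, and the low class the single clones of S45C, T41N and T41S. The same 3 classes came out of the study's own clustering of these libraries, so the p-values between classes are not independent evidence. A grouping by the edited codon, which uses the labels alone, is therefore given beside the calls between classes.

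The edited stretch is shown because it holds the residues that the complex marks and that these clones change. It lies in exon 3 of transcript Ctnnb1-201, in the coding sequence on the plus strand of chromosome 9 (GRCm38, chr9:120950617-120950643), and capitals mark the unedited codons 37 (serine, a GSK3 site), 41 (threonine, a GSK3 site) and 45 (serine, the CK1α site).
*Ctnnb1* codons 37 to 45: TCTggtgccaccACCacagctcctTCC

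Transcript levels are in CPM, the unique molecular identifier (UMI) counts of a gene per 1000000 counts of its library. Where all libraries of a group are said to lie above or below another group, the share of all genes that do so was not counted. Each molecule was read once at its 3′ end, so levels were not divided by length, and the 2 *Ctnnb1* alleles of a clone could not be separated. Libraries held 306157 to 2083398 counts, with the shallowest at 10 µM replicate 1. In the low class, S45C had 662881, T41N 495616 and T41S 1770304 counts. All 8 ES cell markers were detected in all 25 libraries, although *Pou5f1* reached only 9.05 to 28.8 CPM. Summed CPM of those markers was 1666 to 2819 for low, 3507 to 4199 for medium and 3687 to 4730 for high clones, against 2320 to 3260 in unedited cells. Summed CPM of 5 fibroblast markers was 46.8 to 154 for low, 4.59 to 18.6 for medium and 5.51 to 33.6 for high clones, and 27.9 to 90.0 in unedited cells, which overlap the low clones. Neural markers summed to 11.9 to 60.3 CPM in low and 3.72 to 17.9 in high clones, and primitive endoderm markers to 2.02 to 20.3 and 4.65 to 198 CPM. Mitochondrial genes gave 1.53% to 2.52% of the counts in all 15 clones and 0.485% to 1.46% in all 10 unedited libraries (1.31% and 0.562% in the untreated ones), so that this share was apart wherever clones are set against untreated cells. The part of the mitochondrial share and of these marker lists in these differences was not tested, and in bulk RNA fewer cells of a type and less RNA per cell cannot be told apart.

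Targets of β-catenin rose with CHIR99021, as measured by 3 transcripts that the pathway is known to raise. *Axin2*, a negative feedback scaffold, was at 13.8 and 15.8 CPM without and at 98.0 to 134 CPM with 7.5 or 10 µM. *Sp5*, a transcription factor, went from 14.9 and 15.2 CPM to between 131 and 192 CPM, and the homeobox gene *Cdx1* from 27.7 and 28.7 CPM to between 228 and 307 CPM. The log2 fold changes of the top 2 doses over untreated cells were 3.06 ± 0.21 (SE) for *Axin2*, 3.40 ± 0.21 for *Sp5* and 3.26 ± 0.16 for *Cdx1*. The study used *Axin2* as a target on these libraries, so its rise is no independent evidence. In low, medium and high clones, *Cdx1* was at 32.3 to 35.6, 61.2 to 81.6 and 115 to 334 CPM. *Sp5* was at 52.8 to 80.2, 36.4 to 64.2 and 41.3 to 128 CPM, and *Axin2* at 22.6 to 42.4, 22.9 to 33.3 and 38.9 to 87.4 CPM. The classes thus lay in order for *Cdx1* and all overlapped for *Sp5*. For *Axin2* the low class overlapped both others, and the medium clones lay below the high clones. The means of both genes were lower in medium than in low clones, against the order of the score (50.4 and 65.2 CPM for *Sp5*, 28.8 and 34.4 CPM for *Axin2*).

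Beside that response, no transcript of *Ctnnb1*, its degradation machinery or *Ctnna1* passed the test with CHIR99021. In edgeR's quasi-likelihood test of the slope over dose, 0 of 10 members had an adjusted p under 0.05, where 12.5% of all 10033 tested genes did. For the mean of 7.5 and 10 µM minus 0 µM, the count was again 0 of 10, beside 15.8% of all genes. *Ctnna1* was the member with an unadjusted p under 0.05 in both. With DESeq2, *Ctnna1* passed for the slope (adjusted p = 0.0444), and 0 members passed at the top doses. The median size of the log2 fold change at the top doses was 0.20 over the 10 members and 0.27 over all genes tested. These comparisons share the 2 untreated libraries.

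**Figure D1:**
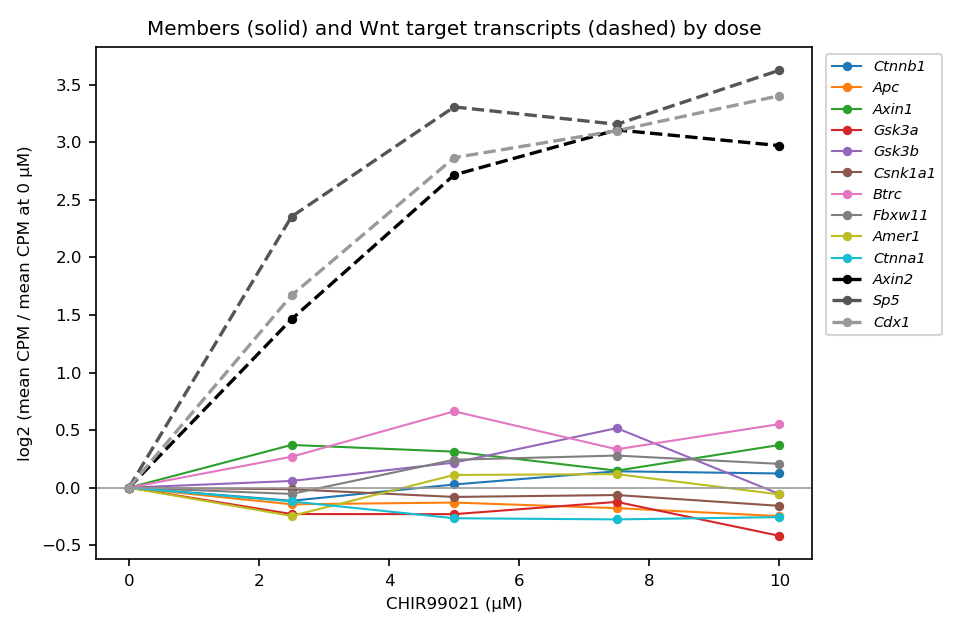
Mean level at each CHIR99021 dose (x axis, µM; 2 libraries per dose) relative to 0 µM, as log2 ratio of mean CPM (y axis), for the 10 members (solid lines) and 3 β-catenin target transcripts (dashed lines). At every dose above 0 µM the lines of all 10 members lie below those of the 3 targets.

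*Ctnnb1* itself (ENSMUSG00000006932.16, GRCm38 chr9:120929216-120960507) did not pass over dose. It was at 439.7 and 445 CPM without CHIR99021, 362 and 456 at 2.5 µM, 457 and 445 at 5 µM, 469 and 508 at 7.5 µM, and 542 and 422 CPM at 10 µM. Of the 8 treated libraries 5 lay above and 2 below both untreated ones. The slope was 0.018 log2 units per µM (95% interval −0.0077 to 0.043, adjusted p = 0.400 by edgeR).

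The classes of clones could not be told apart by *Ctnnb1* either. Levels were 511, 434 and 525 CPM in S45C, T41N and T41S, 528, 452 and 469.9 CPM in S45F C1, S45F D9 and S45P, and 433 to 527 CPM with a median of 484 in the 9 high clones. The ranges overlapped throughout. The log2 difference between high and low clones was −0.01 (95% interval −0.20 to 0.19, adjusted p = 0.964 by edgeR), which corresponds to a fold between 0.868 and 1.14. Against untreated cells it was 0.12 (−0.11 to 0.35) for high and 0.13 (−0.14 to 0.39) for low clones, and neither passed. The biological coefficient of variation of *Ctnnb1* was 0.0984 in the fit of the clones and untreated libraries, where 3.62% of genes had a lower one, and 0.0910 in the fit over dose, where 54.6% did. In the 4 substitutions with 2 clones each, the higher clone exceeded the lower 1.04- to 1.17-fold, within the Wilson 95% counting intervals. The count of *Ctnnb1* could hold reads of *Ulk4*, which overlaps it on the other strand and had 84 counts in all 25 libraries, as the strand setting of the counting was not given. Here and for the other members, overlap was judged by gene start and end, not by exons.

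**Figure D2:**
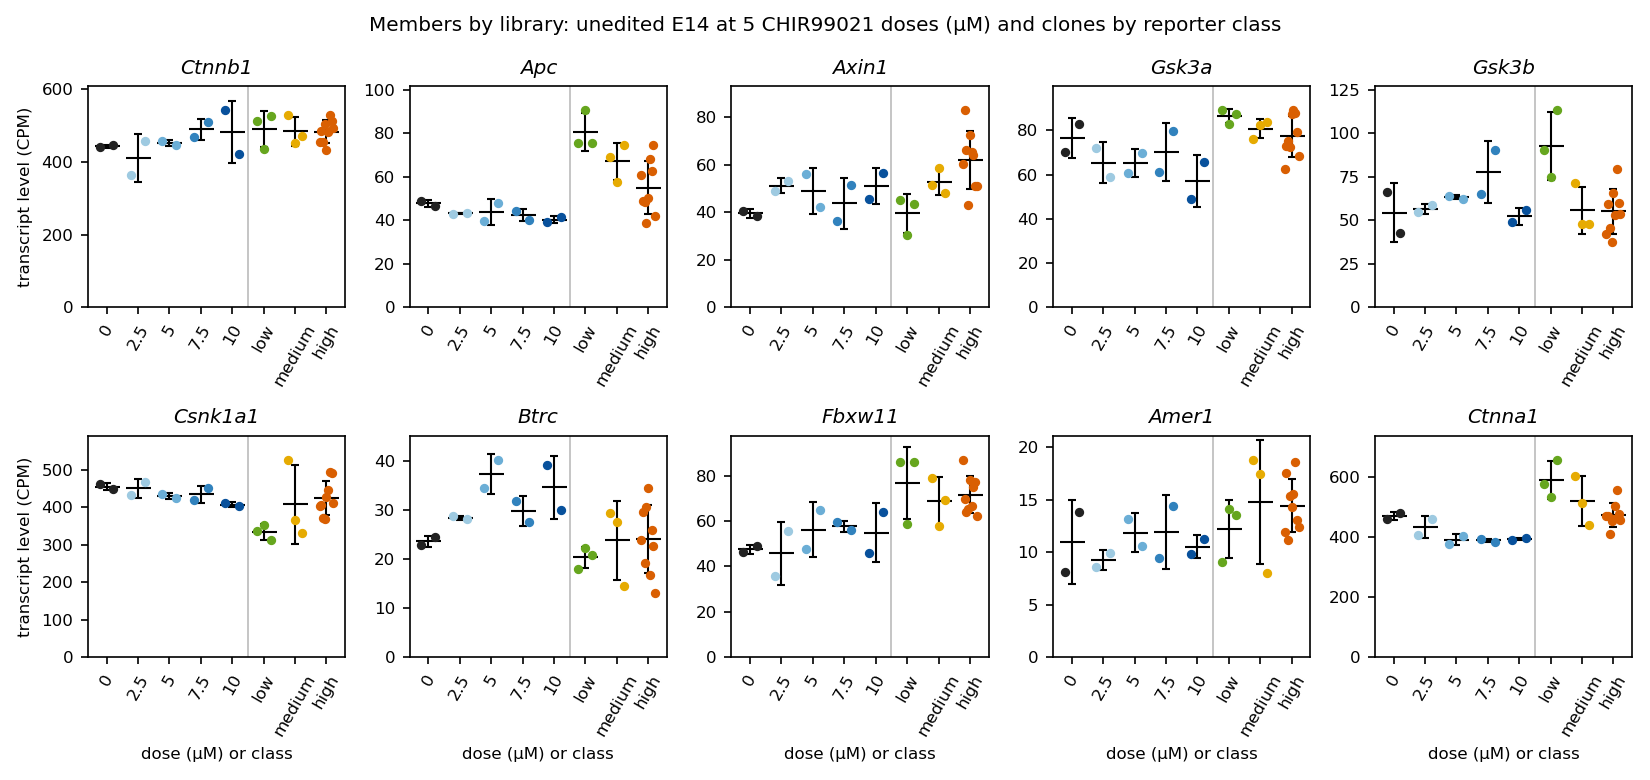
Level in CPM (y axis) of each member in every library, by CHIR99021 dose (µM, unedited cells) and by class of clones (x axis); points are libraries, and horizontal marks with bars are means ± SD (n = 2 per dose, 3 low, 3 medium and 9 high clones). *Ctnnb1* overlaps between the classes of clones, whereas the means of *Apc*, *Gsk3b* and *Ctnna1* are highest in the low clones and that of *Csnk1a1* is lowest there.

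Some members, like many other genes, passed in the comparisons of clones. In edgeR's test of high against low clones, 5 of 10 passed, 2 higher and 3 lower, beside 30.9% of 11018 genes in all, 13.9% higher and 17.0% lower. High clones against untreated cells gave 2 of 10, both higher, where 32.0% of genes passed, 15.3% higher and 16.7% lower. Low clones against untreated cells gave 4 of 10, 3 higher and 1 lower, where 30.9% of genes passed, 16.4% higher and 14.5% lower. With only 10 members in each comparison, these counts are too near the shares of all genes to set the members apart. Comparing codon 37 clones (n = 5) with codon 45 clones (n = 4), 0 of 10 members passed by edgeR, with *Apc* alone at an unadjusted p under 0.05, and 3.74% of all genes did. High minus low and low minus untreated share the low clones, and both comparisons with untreated cells share their 2 libraries.

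**Figure D3:**
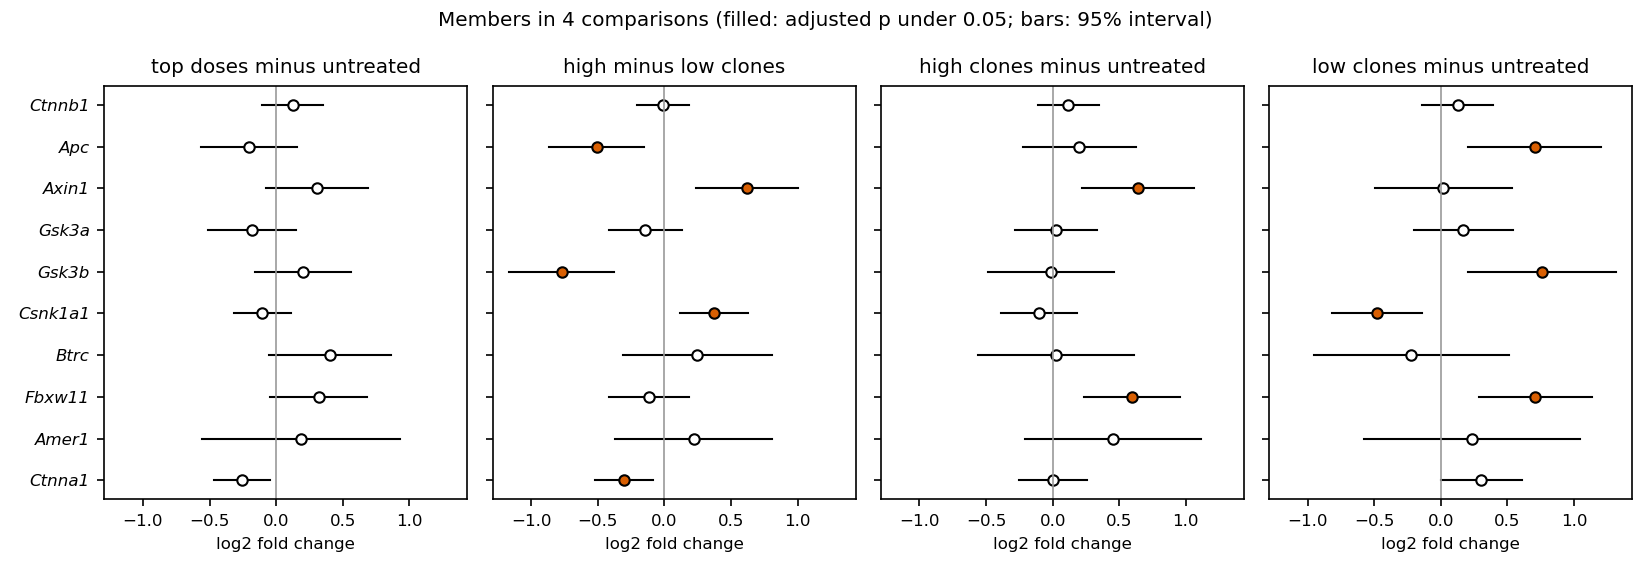
Log2 fold change (x axis) of each member (y axis) in 4 comparisons fitted with edgeR; bars are 95% intervals and filled points have an adjusted p under 0.05. None is filled for the top CHIR99021 doses, and 5 are filled between high and low clones.

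Between codon 37 and codon 45 clones no member's difference passed. The log2 difference was −0.44 ± 0.18 for *Apc* (adjusted p = 0.169 by edgeR) and 0.38 ± 0.20 for *Axin1* (adjusted p = 0.297). For *Gsk3b* it was −0.31 ± 0.25, for *Ctnna1* −0.21 ± 0.11 and for *Csnk1a1* 0.04 ± 0.15. All 5 codon 37 clones are also in the high class and S45C is also in the low class, so this comparison shares clones with high minus low. It leaves out the codon 41 clones and sets S45C beside S45F and S45P.

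Among the scaffolds, *Axin1*, whose product brings the kinases to β-catenin and is held to limit how much complex forms, was higher in the high clones (ENSMUSG00000024182.16, chr17:26138688-26195811). It was at 40.8 and 38.3 CPM in untreated cells, at 45.3, 30.3 and 43.5 CPM in S45C, T41N and T41S, and at 43.0 to 83.1 CPM with a median of 63.9 in the 9 high clones. All 9 high clones lay above both untreated libraries and 8 of them above all 3 low clones. The log2 difference was 0.62 ± 0.18 (SE) for high minus low clones (adjusted p = 0.0123) and 0.64 ± 0.20 for high clones minus untreated cells (adjusted p = 0.0187), both by edgeR. The first did not pass with depth as a covariate (adjusted p = 0.0581) or without T41N (0.0738). The second did not pass when either untreated library was left out (adjusted p = 0.146 and 0.141).

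With CHIR99021, *Axin1* was at 48.9 and 53.4 CPM at 2.5 µM, 55.9 and 42.2 at 5 µM, 36.3 and 51.3 at 7.5 µM, and 45.7 and 56.5 CPM at 10 µM. Of these 8 libraries, 7 lay above both untreated ones and 7.5 µM replicate 1 lay below them. The difference at the top doses was 0.31 ± 0.19 on the log2 scale (adjusted p = 0.302 by edgeR). Low clones did not differ detectably from untreated cells, with a log2 difference of 0.02 (95% interval −0.49 to 0.53).

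*Apc*, the large scaffold lost in most colorectal tumors, was highest in the low clones (ENSMUSG00000005871.14, chr18:34220924-34322552). Its level was 48.9 and 46.8 CPM without CHIR99021, 43.1 and 43.5 at 2.5 µM, 39.5 and 48.0 at 5 µM, 44.3 and 40.3 at 7.5 µM, and 39.2 and 41.4 CPM at 10 µM. Of the 8 treated libraries 7 lay below both untreated ones, and the difference at the top doses was −0.20 on the log2 scale (95% interval −0.56 to 0.15). Clones S45C, T41N and T41S had 75.4, 90.8 and 75.7 CPM, S45F C1, S45F D9 and S45P 69.0, 57.8 and 74.5 CPM, and the high clones 38.9 to 74.4 CPM with a median of 50.4. The 9 high clones all lay below the 3 low clones, with T41I clone B9 next to them. High clones were lower by −0.51 ± 0.17 on the log2 scale (adjusted p = 0.0273), and low clones were above untreated cells by 0.71 ± 0.24 (adjusted p = 0.0291), both by edgeR. The first call was lost with depth as a covariate (adjusted p = 0.0540) and without T41N (0.104) or T41S (0.0945). The second was lost without T41N (0.0720), T41S (0.0564) or either untreated library (0.146 and 0.149). The 2 clones of T41I had 74.4 and 41.9 CPM, with Wilson 95% counting intervals that did not overlap.

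*Amer1*, an X-linked gene whose product recruits the complex to the membrane (ENSMUSG00000050332.7, chrX:95420318-95444872), gave only 3 to 30 counts per library. Its level was 8.15 and 13.8 CPM in untreated cells, 8.62 to 14.4 CPM over the treated libraries, 9.05 to 14.1 CPM in the low clones and 11.2 to 18.6 CPM in the high clones. The ranges overlapped, and a difference could not be resolved at this depth. At the top doses its 95% interval ran from −0.55 to 0.93 on the log2 scale.

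Of the kinases, *Csnk1a1*, which encodes CK1α and places the first mark on β-catenin, was lower in the low than in the high clones (ENSMUSG00000024576.14, chr18:61555274-61590061). It was at 460.4 and 448 CPM without CHIR99021, 433 and 467 at 2.5 µM, 434 and 424 at 5 µM, 418 and 451 at 7.5 µM, and 412 and 402 CPM at 10 µM. The slope of −0.014 log2 units per µM did not pass (95% interval −0.037 to 0.0084). The low clones S45C, T41N and T41S had 336, 353 and 312 CPM, below all 9 high clones, which ran from 369 to 492 CPM with a median of 410.3. The medium clones S45F C1, S45F D9 and S45P had 527, 365 and 330 CPM, so that S45P lay within the range of the low clones. High clones were higher by 0.37 ± 0.13 on the log2 scale (adjusted p = 0.0256) and low clones fell below untreated cells by −0.48 ± 0.16 (adjusted p = 0.0300), both by edgeR. With depth as a covariate both missed the threshold (adjusted p = 0.118 and 0.0739). Both did so too without S45C (0.0697 and 0.0582) or T41S (0.144 and 0.0871), and the second also without either untreated library (0.131 and 0.0741).

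Clones of 1 substitution could differ as much as the classes. *Csnk1a1* was at 527 CPM in S45F clone C1 and at 365 CPM in S45F clone D9, and at 491 and 410.3 CPM in T41I clones B9 and A6. In both pairs the counting intervals were apart. With clones of the same substitution summed into 1 sample, all 5 calls between high and low clones held. The low class has 1 clone per substitution, so the sum left it unchanged and could not show the spread between its clones.

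*Gsk3b*, a target of CHIR99021 that phosphorylates the residues at codons 41 and 37, had the largest difference of any member (ENSMUSG00000022812.13, chr16:38089001-38246084). Clones T41S, S45C and T41N had 114, 90.5 and 74.7 CPM. The high clones ran from 37.8 to 79.5 CPM with a median of 53.5, and 8 of 9 lay below the low clones, T41A clone E6 being the exception. The other T41A clone, C1, had 53.3 CPM, and the counting intervals of this pair were apart. The medium clones S45F C1, S45F D9 and S45P had 71.5, 47.7 and 47.9 CPM. The log2 difference between high and low clones was −0.77 ± 0.19 (adjusted p = 0.00326 by edgeR), a fold of 0.586 (95% interval 0.446 to 0.770). Without T41S it was −0.55 and did not pass (adjusted p = 0.128).

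Low clones were above untreated cells by 0.76 ± 0.27 for *Gsk3b* (adjusted p = 0.0352 by edgeR), but the 2 untreated libraries themselves stood at 66.3 and 42.5 CPM. That call was lost without untreated replicate 2 (adjusted p = 0.336) or T41S (0.210), and with DESeq2 (0.0501). In S45C, the median log2 ratio to the middle of the 25 libraries over 230 other genes of chromosome 16 was 0.44, beside 0.61 for *Gsk3b* itself, whereas in T41S it was −0.05 beside 0.93. Elsewhere, on chromosome 16 in the other libraries and on the other members' chromosomes in all libraries, such medians stayed between −0.19 and 0.17. On chromosome 18, which holds *Apc*, *Csnk1a1* and *Ctnna1*, they were −0.19 to −0.044 in unedited libraries and −0.0012 to 0.12 in clones. On chromosome 19, which holds *Btrc*, they were −0.13 to −0.00032 and 0 to 0.064. The part of these offsets in the members' differences was not tested. With CHIR99021, *Gsk3b* was at 54.6 and 58.7 CPM at 2.5 µM, 64.2 and 62.4 at 5 µM, 65.3 and 90.5 at 7.5 µM, and 49.0 and 55.7 CPM at 10 µM. A single treated library, 7.5 µM replicate 2, lay above both untreated ones, and the top doses differed from untreated cells by 0.20 (95% interval −0.16 to 0.56).

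*Gsk3a*, the paralog that CHIR99021 also inhibits (ENSMUSG00000057177.12, chr7:25228258-25237851), passed in 0 of 5 comparisons. It was at 70.1 and 82.9 CPM in untreated cells, 49.0 to 79.5 CPM with CHIR99021, 82.7 to 89.0 CPM for low, 75.9 to 83.9 CPM for medium and 62.5 to 89.3 CPM for high clones. The ranges of low and high clones overlapped, and the log2 difference between them was −0.14 (95% interval −0.42 to 0.13). The antisense gene *9130221H12Rik*, which overlaps *Gsk3a*, had 332 counts over all libraries, beside 2403 for *Gsk3a*. Whether reads of either were counted for the other was not checked.

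Of the F-box genes, *Fbxw11*, which encodes β-TrCP2, was higher in clones of both classes than in untreated cells (ENSMUSG00000020271.17, chr11:32642724-32746816), as was the mitochondrial share. Untreated libraries had 46.2 and 48.9 CPM, S45C, T41N and T41S had 86.0, 58.5 and 85.9 CPM, and the high clones ran from 62.1 to 87.1 CPM with a median of 69.5. All 15 clones lay above both untreated libraries, the medium clones running from 57.8 to 79.1 CPM. The log2 difference was 0.59 ± 0.17 for the high clones (adjusted p = 0.0121) and 0.71 ± 0.20 for the low clones (adjusted p = 0.0109), both by edgeR, and high and low clones differed by −0.12 (95% interval −0.41 to 0.18). Both calls were lost when either untreated library was left out (adjusted p = 0.174 and 0.0788 for the high, 0.125 and 0.0616 for the low clones), and the second without T41S (0.0725). Treated cells had 35.9 and 55.6 CPM at 2.5 µM, 47.7 and 64.8 at 5 µM, 59.5 and 55.9 at 7.5 µM, and 45.7 and 64.0 CPM at 10 µM, with a difference of 0.32 ± 0.18 at the top doses (adjusted p = 0.252).

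*Btrc*, which encodes β-TrCP1, was scarcer, with 11 to 84 counts per library (ENSMUSG00000025217.14, chr19:45363734-45530013). It was at 22.8 and 24.5 CPM in untreated cells and at 28.7 and 28.2 CPM at 2.5 µM, 34.5 and 40.3 at 5 µM, 31.9 and 27.7 at 7.5 µM, and 39.2 and 30.1 CPM at 10 µM. All 8 treated libraries lay above both untreated ones, a pattern that was not counted over all genes. The slope of 0.039 log2 units per µM had a 95% interval from −0.012 to 0.091 and did not pass (adjusted p = 0.351 by edgeR). The low clones had 18.1 to 22.2 CPM and the high clones 13.2 to 34.6 CPM, so the classes overlapped. A processed pseudogene on the other strand that overlaps *Btrc*, *Gm6807*, had 1714 counts over all libraries against 837 for *Btrc*. Whether they share counted bases was not checked.

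*Ctnna1*, whose product ties β-catenin at cadherins to actin, did not pass over dose or at the top doses by edgeR (ENSMUSG00000037815.6, chr18:35118859-35254779). It was at 461 and 481 CPM without CHIR99021, 408 and 459 at 2.5 µM, 378 and 405 at 5 µM, 393 and 385 at 7.5 µM, and 392 and 397 CPM at 10 µM. All 8 treated libraries lay below both untreated ones, a pattern that was not counted over all genes. The slope was −0.027 ± 0.011 log2 units per µM (adjusted p = 0.116) and the difference at the top doses −0.26 ± 0.11 (adjusted p = 0.0943), neither of which passed by edgeR. With the libraries' share of mitochondrial counts as a block, the top doses passed (adjusted p = 0.0141) and the slope did not (0.0561).

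Between clones, *Ctnna1* was at 576, 533 and 658 CPM in S45C, T41N and T41S and at 409 to 557 CPM with a median of 470.0 in the high clones. The medium clones S45F C1, S45F D9 and S45P had 605, 513 and 439 CPM, so that S45F C1 lay within the range of the low clones. The counting intervals of S45F C1 and D9 were apart. T41A clone E6 was the single high clone within the range of the low ones. The log2 difference was −0.30 ± 0.11 (adjusted p = 0.0311 by edgeR), and it missed the threshold without T41S (adjusted p = 0.294), without untreated replicate 2 (0.0565) or with no filter on low counts (0.109). High clones lay at 0.00 relative to untreated cells (95% interval −0.25 to 0.26), and low clones at 0.30 (adjusted p = 0.119).

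Paralogs of the complex shared their counts in different ways. *Axin1* gave 72.5% of the *Axin1* and *Axin2* counts without CHIR99021 (Wilson 95% interval 65.0 to 79.0), 55.3% at 2.5 µM, 34.4% at 5 µM, 26.0% at 7.5 µM and 30.0% at 10 µM. Both libraries of every dose lay below both untreated ones. The pooled share was 52.8% for low, 65.0% for medium and 49.2% for high clones. *Axin2* passed over dose and *Axin1* did not, and from 5 µM on the counts of *Axin2* exceeded those of *Axin1* in both libraries of every dose.

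The other pairs moved less. *Gsk3a* gave 56.1% of the *Gsk3a* and *Gsk3b* counts in untreated cells (51.0 to 61.1), 46.1% for low (42.0 to 50.3), 57.6% for medium and 58.4% for high clones (56.0 to 60.6). Without T41S, the share in the low clones was 50.8%, and the 2 untreated libraries alone stood at 51.4% and 66.1%. *Btrc* gave 33.2% of the *Btrc* and *Fbxw11* counts in untreated cells (27.0 to 40.0), 33.9% to 39.0% with CHIR99021, 20.1% for low (16.0 to 25.1), 26.7% for medium and 25.1% for high clones (22.8 to 27.5). These intervals cover counting error only.

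**Figure D4:**
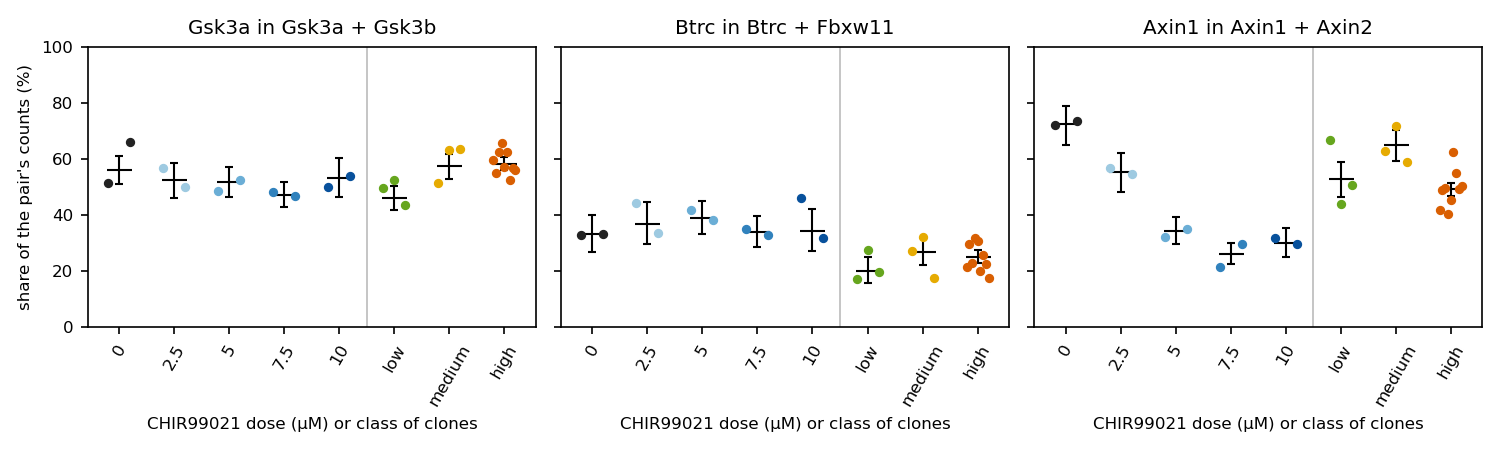
Share of a pair's UMI counts (y axis, %) given by the first gene, by CHIR99021 dose (µM) and class of clones (x axis); points are libraries, and marks with bars are pooled shares with Wilson 95% intervals. The *Axin1* share goes from 72.5% at 0 µM to 26.0% at 7.5 µM and is 30.0% at 10 µM, whereas the *Gsk3a* share is lowest in the low clones.

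Beyond the members, 5 of 7 tested adhesion partners of β-catenin were lower in high than in low clones and 2 did not pass, beside 17.0% of all genes lower. The median log2 difference was −0.89, beside 0.02 over all genes tested and −0.06 over the 10 members. *Cdh2* (N-cadherin) was at 15.1 to 28.2 CPM in the low and 2.23 to 5.51 CPM in the high clones, a log2 difference of −2.59 ± 0.33. The lowest high clone level, 2.23 CPM, stands for 3 counts in S37A, so this difference rests on few counts there. *Vcl* (vinculin) differed by −1.53 ± 0.22, *Ctnnal1* (α-catulin) by −1.20 ± 0.20 and *Ctnnd1* (p120-catenin) by −0.89 ± 0.13, and the fifth, named after its values were seen, was *Jup* (γ-catenin). Between codon 37 and codon 45 clones, *Ctnnal1* passed (−1.15, adjusted p = 0.0221 by edgeR), whereas the differences were smaller and did not pass for *Cdh2* (−1.17, adjusted p = 0.377), *Vcl* (−0.53, 0.431) and *Ctnnd1* (−0.51, 0.214).

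The same 5 adhesion genes were higher in low clones than in untreated cells, beside 16.4% of all genes higher. Of these calls, *Cdh2* was lost without untreated replicate 1 (adjusted p = 0.0697 by edgeR). The call of *Ctnnal1* (0.78) was lost without S45C (0.52, adjusted p = 0.168 by edgeR) or T41N (0.80, 0.0509). With depth as a covariate it was lost as well (0.58, adjusted p = 0.118 by edgeR). Its difference went to 0.44 without untreated replicate 2 and to 1.26 without untreated replicate 1. The summed fibroblast markers of the low clones were above those of all 9 high clones and overlapped those of unedited cells, and their part was not tested. With CHIR99021, 0 of the 7 passed for the slope or at the top doses by edgeR, beside 12.5% and 15.8% of all genes.

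Of 6 further kinases and scaffolds, *Axin2* was the only one to pass over dose, beside 12.5% of all genes. It was also higher in high than in low clones (0.87 ± 0.24), by codon as well (1.53, adjusted p = 7.7e-05 by edgeR), but not without S45C (0.65, adjusted p = 0.0687). *Csnk1e* (CK1ε) was below untreated cells by −1.35 ± 0.20 in the high and −2.13 ± 0.26 in the low clones. *Csnk1g3* (CK1γ3) was lower in high than in low clones by −0.63 ± 0.21, but by −0.39 without T41S (adjusted p = 0.376) and by −0.35 by codon (0.423), neither of which passed. Its call in low clones against untreated cells (0.90 ± 0.30) was lost without T41S or either untreated library (adjusted p = 0.102 to 0.178).

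Subunits of PP2A, the phosphatase that opposes the kinases, passed in 0 of 9 cases over dose and at the top doses by edgeR. Of all genes, 12.5% and 15.8% passed. In both high and low clones, 3 of 9 were higher than in untreated cells and 1 lower. Of all genes, 15.3% and 16.4% were higher and 16.7% and 14.5% lower. The catalytic subunit *Ppp2ca* was higher by 0.72 ± 0.13 in the high and 0.59 ± 0.14 in the low clones. The calls of the other catalytic subunit *Ppp2cb*, the scaffold *Ppp2r1b* and the regulatory subunit *Ppp2r5c*, which was the lower one, were each lost in high clones without either untreated library, *Ppp2cb* going from 0.61 to 0.40 without replicate 1. In low clones *Ppp2r1b* (1.03 ± 0.21) and *Ppp2r5c* (−1.06 ± 0.20) passed in every alternative run, and *Ppp2cb* (1.09 ± 0.25) was lost without untreated replicate 1 (adjusted p = 0.0755). Between high and low clones, 2 were higher and 2 lower, beside 13.9% and 17.0% of all genes. Of these calls, *Ppp2cb* (−0.48 ± 0.17) was lost in 6 of 17 fits with a library left out, going to −0.35 without S45C. By codon *Ppp2cb* did not pass either (−0.18, adjusted p = 0.669 by edgeR).

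Of 11 genes of the ubiquitin and PARsylation machinery, which serves the F-box proteins and turns over AXIN, 1 passed over dose, beside 12.5% of all genes. *Skp1a*, the adaptor that holds the F-box proteins, fell by 0.034 log2 units per µM (adjusted p = 0.0375 by edgeR), a call lost in 6 of 10 fits with a library left out (up to 0.0859). In high clones, *Skp1a* was below untreated cells by −0.68 ± 0.12, and *Siah1b*, a RING ligase, was above them by 1.19 ± 0.21. *Cul1*, the cullin of the same ligase as *Skp1a*, was above untreated cells in both classes, by 0.66 ± 0.19 in the high clones, where the call was lost without untreated replicate 1 (adjusted p = 0.246).

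Among regulators of the complex, 1 of 7 passed over dose, beside 12.5% of all genes. *Frat2*, which encodes a GSK3-binding protein that keeps the kinase from AXIN, was at 23.4 and 28.3 CPM without and at 4.52 to 9.80 CPM with 7.5 or 10 µM, a log2 fold change of −2.28 ± 0.34 (adjusted p = 2.3e-06 by edgeR). In 10 µM replicate 1, the 9.80 CPM stand for only 3 counts. At the top doses 3 of 8 passed, all lower, beside 15.8% of all genes in either direction, the others being *Dact1* and, named after its values were seen, *Frat1*. *Dact1* went from −1.16 to −0.28 without untreated replicate 1 (adjusted p = 0.862) and did not pass with DESeq2 (0.509). *Frat2* was also lower than in untreated cells in high (−1.07 ± 0.29) and low clones (−1.44 ± 0.40), calls that were lost without untreated replicate 1 (adjusted p = 0.178 for the high clones) and, in the low clones, without T41S (0.0904).

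Of 13 nuclear partners of β-catenin, 3 passed over dose, beside 12.5% of all genes. *Lef1* and, named after its values were seen, *Tcf7* were higher, and *Tcf7l1*, a repressor of the same family, was lower. *Lef1* was at 8.15 and 11.7 CPM without and at 42.5 to 48.6 CPM with 7.5 or 10 µM, and *Tcf7l1* was lower at these doses by −0.93 ± 0.14. Between high and low clones 4 passed, all lower, beside 17.0% of all genes. *Tcf7l1* differed by −0.75 ± 0.20 and by −1.32 by codon (adjusted p = 7.7e-05 by edgeR). *Bcl9l* differed by −1.82 ± 0.32 but by −0.57 by codon (adjusted p = 0.611). Its lowest level in a high clone, 3.07 CPM in S37F clone G1, stands for only 3 counts. *Lef1* was lower by −0.96 ± 0.29, a call lost without T41N (adjusted p = 0.0918) or with depth as a covariate (0.107), and by codon its sign turned (0.40, 0.683).

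**Figure D5:**
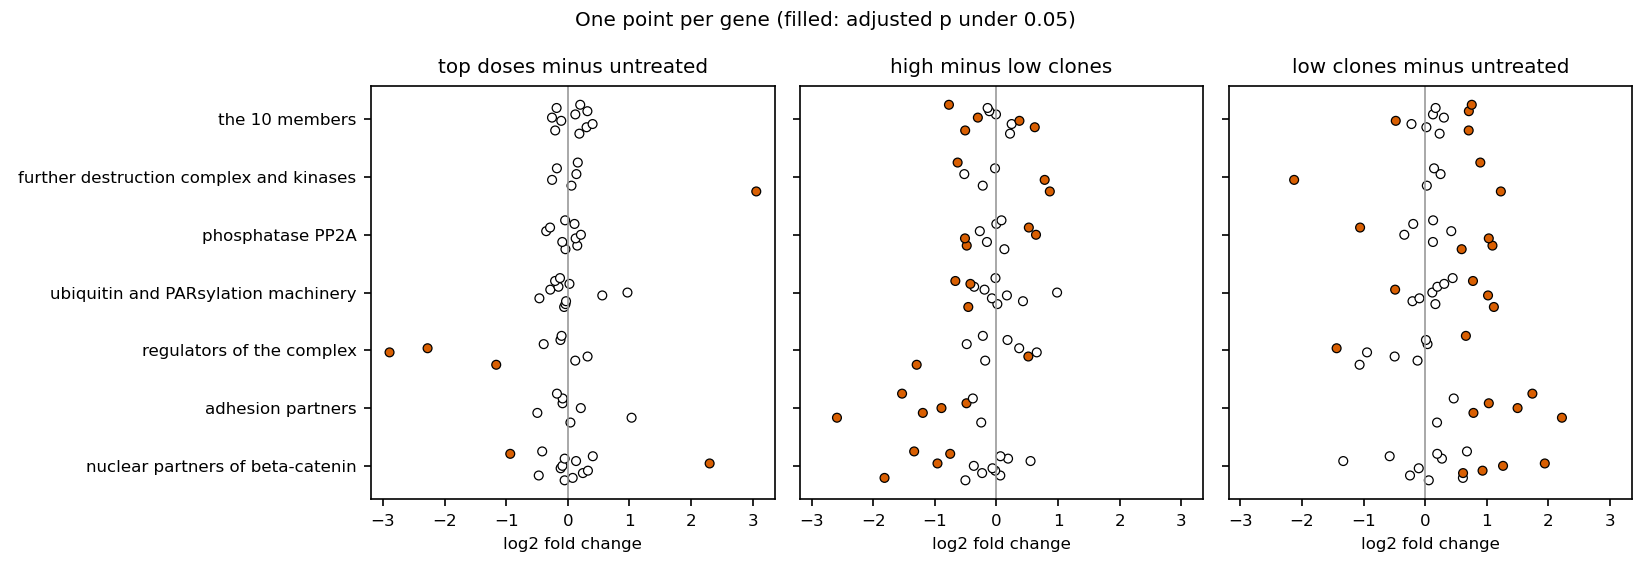
Log2 fold change (x axis) of the members and of the genes of 6 pathway lists (y axis, 1 point per tested gene) in 3 comparisons; filled points have an adjusted p under 0.05 in edgeR. The filled adhesion partners lie left of 0 between high and low clones and right of 0 between low clones and untreated cells.

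Genes whose levels ran most alike to the members over the 25 libraries are given as a description, since the libraries share dose, class and depth. For *Ctnnb1*, the highest Pearson correlations of log2 CPM among 7091 genes were with *Ap3m1* (0.72), *Mrpl3* (0.72) and *Ppp3cb* (0.70). The closest gene to *Apc* was *Hnrnph1* (0.87), to *Axin1* *Atp6v1b2* (0.78), to *Gsk3b* *Arhgap21* (0.77), to *Csnk1a1* *Atg4d* (0.80), to *Fbxw11* *Thoc1* (0.84) and to *Ctnna1* *Ap2m1* (0.89).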

How the data were processed

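The authors deposited 1 table of UMI counts per gene, with no normalization. Per the study's methods, mcSCRB-seq reads were trimmed (Cutadapt), stripped of ribosomal RNA (SortMeRNA), aligned to mm10 (RNA STAR), deduplicated (UMI-tools and Picard MarkDuplicates) and counted (featureCounts 2.0.1). The annotation release and strand setting were not given in the sources used here. GENCODE M21 (GRCm38) gave symbols and positions for 48058 of 48440 gene identifiers. Library depth was 306157 to 2083398 counts (median 1327802), and a count of 0 allows up to 3 counts, or 1.44 to 9.80 CPM.

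Comparisons were fitted on all genes with edgeR 4.0.16 in R 4.3.3 (quasi-likelihood F-test after TMM scaling; genes kept by filterByExpr at min.count 10; Benjamini-Hochberg threshold 0.05). Dose entered as a number or as 5 levels. The 3 classes and the untreated libraries shared 1 estimate of spread. The study used DESeq2 between its clusters, so DESeq2 1.42.0 was an alternative, with RLE factors, no filter, a replicate block, a block by mitochondrial share (cut at 0.8%), depth as covariate, clones summed per substitution, clones alone and each library left out. The grouping by codon was added after seeing the data. Both libraries of each dose and both clones of each substitution differed beyond sampling noise (chi-square per degree of freedom 1.36 to 3.99) and were counted singly. In simulated data, genes changed 2-fold (log2 of 1) were recovered in 88% of cases for the slope, 91.5% for the top doses, 91% for high minus low, 81% for high minus untreated and 53% for low minus untreated. The changed genes had a mean of at least 20 CPM, which *Amer1* reached in no library (at most 18.8 CPM), and all genes were given the same spread. Smaller changes were not simulated, so these rates do not apply to the smaller differences of the members.

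Members and lists were chosen with earlier results of these data known. Named list genes passed in at least 2 of 5 comparisons, at most 4 a list by smallest adjusted p.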

Additional observations from a re-analysis of the deposited data

How the results depend on the processing

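With no pairing stated, a replicate block gave 1140 called genes for the slope (1256 without it) and 1551 for the top doses (1687), and 0 members in both; same-numbered libraries did not deviate together (correlations −0.21 to 0.17, 3 of 10 over 0.1). DESeq2 called 545 genes at the top doses. Codon 37 minus codon 45 called 412 genes and 0 members, against 3404 and 5 for high minus low; it uses other clones. Members called went from 0 to 1 (*Ctnna1*) with DESeq2 for the slope and with the mitochondrial block at the top doses, and from 5 to 2 with depth as a covariate for high minus low. The cause of these shifts was not tested.

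Leaving out each library gave 527 to 1325 called genes for the slope (527 and 779 without untreated replicate 1 and 2), 681 to 1801 for the top doses (681 without untreated replicate 1, 944 without 10 µM replicate 2), 1747 to 3488 for high minus low (1747 without T41S), 1268 to 3748 for high minus untreated and 1672 to 3479 for low minus untreated (1268 and 1672 without untreated replicate 1, 1846 and 2218 without replicate 2). Members called ran from 1 to 5 for high minus low (1 without T41S, 3 without T41N), 0 to 2 for high minus untreated (0 without either untreated library) and 0 to 4 for low minus untreated (0 without T41S or untreated replicate 2, 1 without replicate 1).

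Signs turned in members that had not passed. High minus low was 0.024 for *Ctnnb1* with no filter and 0.032 for *Fbxw11* by codon; *Lef1*, which had passed, was 0.40 by codon (adjusted p = 0.683). High minus untreated was 0.00047 for *Gsk3b* with no filter, and for *Ctnna1* −0.014 (DESeq2), −0.024 (RLE), −0.013 (summed) and −0.015 (depth). Leaving out libraries, high minus low ran from −0.093 to 0.059 for *Ctnnb1* and −0.25 to 0.0020 for *Fbxw11*; high minus untreated from −0.11 to 0.12 for *Gsk3a*, −0.28 to 0.36 for *Gsk3b*, −0.069 to 0.099 for *Btrc* and −0.039 to 0.024 for *Ctnna1*; low minus untreated from −0.088 to 0.14 for *Axin1* and −0.19 to 0.53 for *Amer1*; the top doses from −0.0011 to 0.60 for *Gsk3b* and −0.27 to 0.52 for *Amer1*; and the slope of *Amer1* from −0.0014 to 0.050. TMM scaling moved 0 of 50 mean levels by 1 SD or more. Depth limits *Amer1* and *Btrc* most.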
